A study of Homo sapiens with 12 samples.

Results

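The zinc finger genes of human chromosome 19 were followed in D283 cells, an established medulloblastoma line, in which the tyrosine kinase genes ABL1 and ABL2 had been inactivated. A gene was taken as a member when its symbol in the deposited table is ZNF, a number and at most 1 further letter, and when its first listed position is on the main sequence of chromosome 19. This rule used no measured value and gave 258 of the 49651 genes with counts, of which 246 are annotated as protein-coding and 12 as transcribed pseudogenes. The control group is D283 cells labelled as scrambled control, and the inactivated group is D283 cells labelled with inactivation of both ABL1 and ABL2. Both groups were grown in the same medium, and each has 3 libraries, sequenced on 2 lanes, so that the 12 samples of the series are 6 libraries. The labels do not give the method of inactivation or whether a clone or a pool of cells was used. They also do not say that the 3 libraries are separate cultures, and if they are not, the p-values measure technical spread only.

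Most ZNF genes of chromosome 19 encode KRAB zinc finger proteins. Their C2H2 fingers, loops folded around a zinc ion, lie in long tandem arrays that read DNA, while the KRAB domain at the other end of the protein binds TRIM28, a scaffold that brings in the histone methyltransferase SETDB1 and heterochromatin proteins and so silences the bound site. Many members silence transposable elements, and in neural cells the system also acts on nearby genes. The family grew by tandem duplication, and for this reason the genes stand in clusters along the chromosome and neighbours are often close copies of each other.

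The start regions printed here belong to the 3 members with the steepest decreases and to the closest pair of neighbours. They were taken from RefSeq (GRCh38.p14) and run from 250 bases before to 50 bases after the annotated start. Each is written 5′ to 3′ on the strand of its gene, and capitals mark CG dinucleotides, the sites at which promoters of this kind can be methylated. ZNF415 (chr19:53132861-53133160, minus strand), ZNF525 (chr19:53365455-53365754, plus strand) and ZNF582 (chr19:56393485-56393784, minus strand) had the largest fold decreases. ZNF585A (chr19:37172646-37172945, minus strand) and ZNF585B (chr19:37210487-37210786, minus strand) are the neighbours whose proteins are most alike, and ZNF585B alone of them passed the test.
ZNF415: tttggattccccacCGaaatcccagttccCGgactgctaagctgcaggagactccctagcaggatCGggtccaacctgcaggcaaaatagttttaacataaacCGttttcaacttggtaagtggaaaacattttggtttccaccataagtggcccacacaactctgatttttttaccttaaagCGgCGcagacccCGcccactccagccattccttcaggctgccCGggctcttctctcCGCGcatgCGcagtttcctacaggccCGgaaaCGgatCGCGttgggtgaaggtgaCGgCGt
ZNF525: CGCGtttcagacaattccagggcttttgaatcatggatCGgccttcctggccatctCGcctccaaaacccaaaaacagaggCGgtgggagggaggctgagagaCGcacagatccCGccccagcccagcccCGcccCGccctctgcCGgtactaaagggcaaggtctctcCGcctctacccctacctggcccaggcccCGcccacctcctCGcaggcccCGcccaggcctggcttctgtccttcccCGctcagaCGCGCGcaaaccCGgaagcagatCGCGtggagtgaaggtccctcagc
ZNF582: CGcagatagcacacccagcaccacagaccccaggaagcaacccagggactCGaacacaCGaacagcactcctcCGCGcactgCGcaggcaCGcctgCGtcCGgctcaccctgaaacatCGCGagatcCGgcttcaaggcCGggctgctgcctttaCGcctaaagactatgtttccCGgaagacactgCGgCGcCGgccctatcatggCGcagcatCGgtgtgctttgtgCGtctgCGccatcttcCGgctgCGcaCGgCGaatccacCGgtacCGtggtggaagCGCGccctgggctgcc
ZNF585A: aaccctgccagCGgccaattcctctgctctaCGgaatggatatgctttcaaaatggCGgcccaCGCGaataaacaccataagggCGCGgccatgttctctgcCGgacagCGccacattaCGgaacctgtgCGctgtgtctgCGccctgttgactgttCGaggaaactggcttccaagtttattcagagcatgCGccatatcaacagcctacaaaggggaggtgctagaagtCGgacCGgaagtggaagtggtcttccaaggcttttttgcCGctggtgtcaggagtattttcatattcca
ZNF585B: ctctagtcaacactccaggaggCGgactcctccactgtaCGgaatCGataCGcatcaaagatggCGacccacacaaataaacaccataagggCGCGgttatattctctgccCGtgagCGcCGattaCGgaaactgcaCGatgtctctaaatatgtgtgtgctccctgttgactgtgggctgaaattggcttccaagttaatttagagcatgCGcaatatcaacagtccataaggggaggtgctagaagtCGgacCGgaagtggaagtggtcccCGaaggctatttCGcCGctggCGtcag

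These windows hold 17 CG dinucleotides in ZNF415, 21 in ZNF525, 30 in ZNF582, 17 in ZNF585A and 19 in ZNF585B. RefSeq windows were matched to 216 members, which had a median of 20 CG dinucleotides, against 14 over all 27305 windows. The windows of ZNF585A and ZNF585B share 73.3% of 322 aligned columns. Letter strings were searched on both strands, and no string contains another. CCGGAAG was present in 45.4% of the member windows and in 10.7% of all windows, and of the 5 windows shown it is in ZNF525, ZNF582, ZNF585A and ZNF585B. GGGCGG was in 67.6% of the member windows against 44.6% of all windows, and is in ZNF415 and ZNF525. CCAAT was in 53.7% against 35.7%, and is in both ZNF585 genes. CACGTG, the string that MYC can bind, was in 4.17% against 7.43%, and TATAAA in 1.85% against 11.95%, and none of the 5 windows shown has either string. Such matches describe the letters only, and the member windows are richer in CG than the rest.

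The 2 targeted genes check the labels. Groups were compared with the quasi-likelihood F test of edgeR on all 14704 genes that passed a filter on low counts, with Benjamini-Hochberg adjustment, and rose, fell and called are used of genes with an adjusted p under 0.05. ABL1 was at 157, 148 and 154 CPM (counts scaled to library size by the trimmed mean of M values) in the control libraries and at 62.1, 62.3 and 61.1 CPM in the inactivated libraries, a log2 fold change of -1.31 ± 0.043 (SE, n = 3 against 3, adjusted p = 5.37e-15). ABL2 was at 144, 136 and 134 CPM against 97.6, 112 and 102 CPM, a log2 fold change of -0.41 ± 0.051 (adjusted p = 1.29e-06). Neither gene overlapped between the groups. Libraries held 33505903 to 49034159 counts, with the inactivated library 2 the deepest, and the members took 0.401% to 0.416% of the counts in control libraries and 0.368% to 0.395% in inactivated libraries. A count of 0 allows up to 3 counts, or 0.0612 to 0.0895 CPM in these libraries. Of 8 genes listed here as markers of Group 3 medulloblastoma, not all of them specific to it, 7 were tested, 4 rose and 3 fell. IMPG2 rose from 66.7 to 316 CPM, CRX from 51.5 to 95.8 CPM, NPR3 from 817 to 957 CPM and MYC from 482 to 526 CPM, the last with overlapping groups. OTX2 fell from 830 to 666 CPM, NEUROD1 from 28.5 to 17.8 CPM and EOMES from 0.568 to 0.122 CPM, and NRL had no count in any library. Summed fibroblast markers were at 17.2 to 18.3 CPM in control and 23.8 to 27.0 CPM in inactivated libraries, with COL1A2 near 0, and they moved both ways, COL1A1 rising from 8.11 to 15.1 CPM and PDGFRA from 5.96 to 8.91 CPM while DCN fell from 3.27 to 0.979 CPM. Summed endothelial markers were at 4.12 to 4.46 and 9.66 to 11.02 CPM, a difference carried by KDR (2.22 and 8.41 CPM), with VWF at 2.01 and 1.86 CPM (not passed) and the defining genes PECAM1 and CDH5 at or near 0. Summed blood cell markers were at 0.506 to 0.963 and 0.547 to 1.01 CPM, and summed astrocyte markers at 0 to 0.0301 and 0.0273 to 0.222 CPM. The part of these differences in the zinc finger results was not tested. In bulk RNA, fewer cells of a kind and less RNA per cell cannot be told apart.

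Decreases outnumbered increases among the members. Of the 258 genes, 224 passed the filter on low counts, and of these 114 were called (50.9%), 85 fell (37.9%), 29 rose (12.9%) and 110 did not pass the test. Over all genes tested 59.3% were called, 29.6% as higher and 29.7% as lower, so the members' share of decreases lay above that of the whole table and their share of increases below it. The median log2 fold change of the tested members was -0.12 (interquartile range -0.29 to 0.09), with 150 fitted below 0 and 74 above, against a median of 0.0031 over all genes. Groups did not overlap for 89 members below and 33 above, while over all genes tested 63.2% did not overlap, 31.9% below and 31.4% above. These shifts were small for most members, since 25 of the 114 called genes changed by at least 1.5-fold. Over all genes tested, 3529 of the 8726 called genes did so.

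Zinc finger genes elsewhere also had more decreases than increases. Of 273 genes with the same symbol pattern on other chromosomes, 219 were tested, 87 fell (39.7%) and 39 rose (17.8%), with a median of -0.09. Among the members 37.9% fell and 12.9% rose, against 29.7% and 29.6% over all genes. The larger share of decreases was thus not particular to chromosome 19. Of the other genes of chromosome 19, 774 were tested, 202 fell (26.1%) and 204 rose (26.4%), with a median of -0.0079. No test of the difference between these sets was made. The 34 members below the filter had few or no counts in both groups, the highest of them being ZNF534 at 0.271 CPM in control cells and 0.102 CPM in inactivated cells. For ZNF177, ZNF20, ZNF137P and ZNF321P low counts do not show low expression, since 97.4% to 99.9% of their exon bases lie in exons of other genes. Some other members below the filter, among them ZNF546, ZNF676, ZNF100 and ZNF85, also have a row for an alternate copy. Reads that fit both copies may have been left out, so their low counts need not show low expression either.

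The libraries differed in how far they moved. The median log2 ratio of the tested members to the control mean was 0.0023, 0.022 and -0.021 in the control libraries and -0.17, -0.039 and -0.13 in the inactivated libraries. All 3 inactivated libraries lay below all 3 control libraries, and the inactivated library 2, the deepest, lay closest to them. Summed over the members, levels were 4082, 4183 and 4041 CPM in control and 3635, 3906 and 3691 CPM in inactivated libraries, a decrease of the mean by 8.73%. Without the inactivated library 2, 97 of 224 tested members were lower and 28 higher, while over all genes in that fit 29.3% were lower and 29.2% higher. Each library was also left out in turn, and 64 of the 85 decreases and 20 of the 29 increases were called in all 6 of those fits. The same count over all genes was not made.

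**Figure D1:**
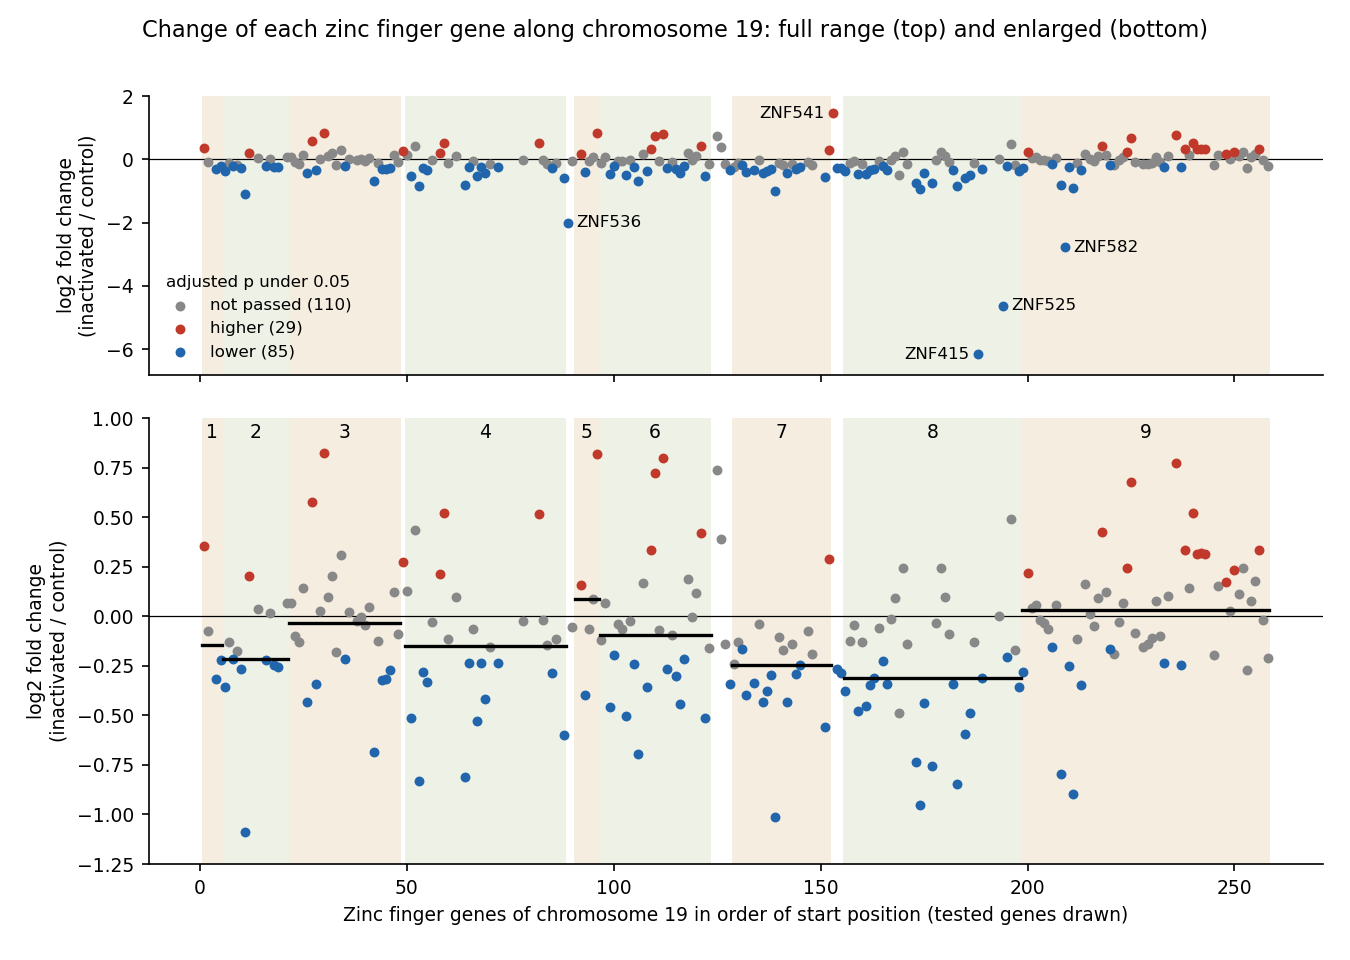
Log2 fold change (inactivated over control) of the 224 tested members, one point per gene, against their order by start along chromosome 19, at full range above and enlarged below. Shaded bands are the 9 numbered clusters and black lines their medians, which run from -0.31 in cluster 8 to 0.09 in cluster 5.

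Along the chromosome the members fell into 9 clusters, a cluster being a run of at least 5 members whose neighbouring starts lie at most 1 Mb apart, with 11 members scattered between them. Positions are in GRCh38.p14, as in the deposited table. Cluster 8, in the distal long arm, and cluster 7 leaned furthest to lower levels, with medians of -0.31 and -0.24. Which of them leaned further is not settled, since without control library 1 cluster 8 had -0.256 and cluster 7 -0.258. Cluster 9, next to the telomere, held 13 of the 29 increases, 23.2% of its tested members against 29.6% over all genes, and had a median of 0.033. The other medians were -0.15 in cluster 1, -0.21 in cluster 2, -0.03 in cluster 3, -0.15 in cluster 4, 0.09 in cluster 5, -0.09 in cluster 6 and -0.10 in the scattered members. Some of these rest on single libraries. The median of cluster 3 was 0.027 without inactivated library 1 and -0.11 without inactivated library 2, so its sign is not settled. That of cluster 9 ran from 0.0082 without control library 2 to 0.063 without control library 1. That of cluster 4 was -0.23 without inactivated library 2, and that of cluster 5 was 0.052 without inactivated library 3. That of cluster 6 was -0.16 without inactivated library 2 and -0.049 without control library 1. These are descriptions of the clusters, with no test between them.

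**Figure D2:**
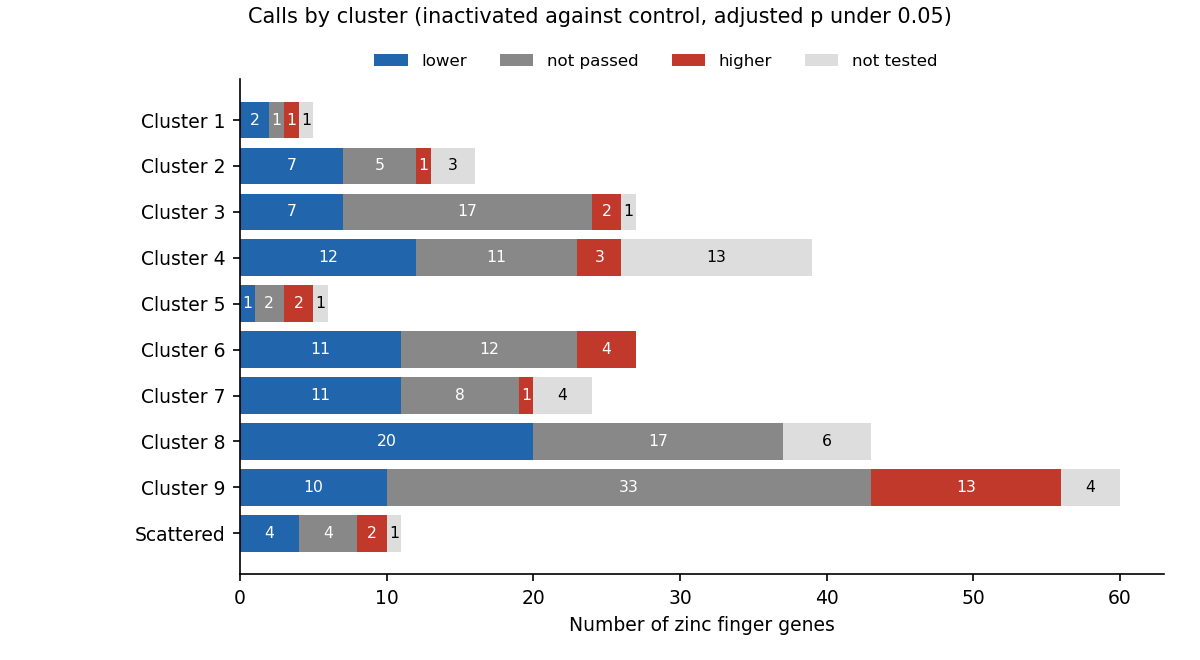
Number of members in each cluster that were called lower, did not pass, were called higher or were not tested. In cluster 8, 20 of 37 tested members were lower and 0 were higher, whereas cluster 9 had 10 lower and 13 higher of 56. Over all genes tested 29.7% were lower and 29.6% higher.

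Cluster 8 runs from ZNF175 to ZNF331 (51571283 to 53580269) and has 43 members, 37 of them tested. By the quasi-likelihood test in edgeR 20 of these genes fell, 17 did not pass and 0 rose. Decreases were 54.1% of the tested members against 29.7% over all genes, and increases 0% against 29.6%. With 1 library left out, 18 to 24 members were lower, and 1 was higher without control library 2. At an unadjusted p under 0.05, 1 was higher and 22 were lower. DESeq2 called 19 lower and 0 higher, and limma-voom 20 and 0. The summed level of the cluster was 499, 510 and 478 CPM in control and 401, 430 and 404 CPM in inactivated libraries, a decrease by 17.0%. No inactivated library reached the lowest control library. Among the other genes inside the cluster, 7 were tested, of which 3 fell and 1 rose, with a median of -0.09.

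The largest decrease of any member was that of ZNF415 (chr19:53107879-53132910, minus strand), which encodes a KRAB protein with 11 fingers. It was at 2.76, 2.79 and 2.29 CPM in the control libraries and at 0.0547, 0.0202 and 0.0292 CPM in the inactivated libraries, from 98, 97 and 76 counts against 2, 1 and 1. The gene was thus close to silent in all 3 inactivated libraries, with fewer than the 3 counts that an absence of reads allows. The log2 fold change in the edgeR fit was -6.16 ± 0.34 (adjusted p = 1.53e-11). From the summed counts, the ratio of control to inactivated was 78.8, with a 95% interval of 30.4 to 291 from counting error alone. Its neighbours on both sides stayed expressed. ZNF160, whose end lies 4.46 kb before it, had a log2 fold change of -0.13 ± 0.067 (adjusted p = 0.104), and ZNF347, 2.03 kb after it and on the other side of its start, fell by 0.31 on the log2 scale.

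ZNF525 (chr19:53365705-53386590, plus strand), a KRAB gene with 8 fingers in the same cluster, had the next largest decrease. Control libraries were at 4.64, 4.64 and 5.12 CPM and inactivated libraries at 0.219, 0.161 and 0.205 CPM, which is 496 against 23 counts. The control level was 25.1 times the inactivated level (95% counting interval 16.5 to 39.95), and the log2 fold change was -4.62 ± 0.20 (adjusted p = 4.72e-13). The genes beside it kept most of their RNA. ZNF845, 8.80 kb before, was at 16.5 ± 1.16 and 16.6 ± 1.25 CPM (SD, n = 3 each), and ZNF765, 8.56 kb after, fell by 0.21 on the log2 scale, a call lost without control library 1 (adjusted p = 0.101), control library 2 (0.0526) or inactivated library 1 (0.139).

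Smaller decreases came in runs. From ZNF578 to ZNF83, the tested neighbours ZNF578 (-0.74), ZNF808 (-0.95), ZNF701 (-0.44) and ZNF83 (-0.76, all log2 fold changes) fell together, and further on ZNF320 (-0.34), ZNF888 (-0.85), ZNF816 (-0.59) and ZNF702P (-0.49) did so, with ZNF611, ZNF600, ZNF28 and ZNF468 between them not passing the test. These runs were picked out after the values were seen, and the call of ZNF578 was lost without control library 2 (adjusted p = 0.0571) or inactivated library 1 (0.07). ZNF808, a silencer of transposable elements that is needed for pancreas development, was at 11.9, 12.2 and 11.2 CPM in control and 5.55, 6.51 and 6.17 CPM in inactivated libraries. ZNF888 was at 10.97, 11.5 and 11.1 CPM against 5.44, 6.57 and 6.66 CPM. In both genes every inactivated library lay below every control library. ZNF614, the member of the cluster with the highest control level per kilobase of exon (11.6 CPM per kb), fell from 53.8 ± 2.57 to 42.4 ± 1.32 CPM (adjusted p = 7.79e-06). Reads of 50 bases from near copies cannot always be placed. Of the 50-base words in the transcripts, 75.2% of those of ZNF320, 55.8% of those of ZNF468, 22.3% of those of ZNF808, 15.02% of those of ZNF888 and 5.89% of those of ZNF525 also occur in other genes, against 0.715% for ZNF415. ZNF320 and ZNF468 share words mostly with each other (69.4% and 52.5%), so the decrease of the one and the missing call of the other are uncertain as separate measurements.

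Cluster 9 runs from ZNF628 to ZNF446 (55476617 to 58489533) and is the largest, with 60 members and 56 tested. It was mixed, with 10 decreases (17.9%), 13 increases (23.2%) and 33 genes that did not pass. Without control library 1 there were 6 decreases and 11 increases, and 6 of the 10 decreases and 8 of the 13 increases were called whichever library was left out. The summed level of the cluster was 743, 735 and 738 CPM in control and 744, 763 and 735 CPM in inactivated libraries, which overlap. The calls were not spread evenly. Runs were also broken wherever neighbouring starts lie over 0.5 Mb apart. The 17 tested members from ZNF628 to ZNF835 then had 7 decreases (41.2%) and 1 increase (5.88%), with a median of -0.07. The 39 tested members from ZNF264 to ZNF446 had 3 decreases (7.69%) and 12 increases (30.8%), with a median of 0.09. Over all genes tested 29.7% fell and 29.6% rose, so this distal stretch had few decreases but a share of increases near that of all genes. The 34 other genes tested within cluster 9 had 6 decreases and 8 increases.

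In the proximal stretch the decreases included ZNF582 (chr19:56382751-56393534, minus strand), a KRAB gene with 9 fingers whose promoter is a known target of methylation in carcinomas. It was at 1.89, 1.70 and 1.38 CPM in control and at 0.109, 0.282 and 0.322 CPM in inactivated libraries, from 172 against 29 counts. The ratio of control to inactivated was 6.90 (95% counting interval 4.64 to 10.6) and the log2 fold change -2.77 ± 0.30 (adjusted p = 1.82e-07). ZNF582-DT, the transcript that starts beside ZNF582 and runs the other way, had 26 counts in control and 3 in inactivated libraries, a ratio of 10.1 (3.09 to 52.1), and was below the filter of the test. Genes on both sides of this pair fell as well. The transcribed pseudogene ZNF542P went from 21.2, 23.7 and 21.7 CPM to 13.6, 12.9 and 11.8 CPM (log2 fold change -0.80 ± 0.070), ZNF583 fell by 0.25 and ZNF667 by 0.90 on the log2 scale, the last from 8.73 ± 0.281 to 4.65 ± 0.565 CPM. ZNF470, further along, fell by 0.35. The call of ZNF583 rested on single libraries, with an adjusted p of 0.0534 to 0.153 without control library 1 or 2 or inactivated library 1 or 2. ZNF787, the member of the cluster with the highest level per kilobase (13.3 CPM per kb in control), had overlapping groups and a log2 fold change of -0.15 ± 0.062 (adjusted p = 0.041) that was not called by DESeq2 (adjusted p = 0.0596) nor without any 1 library except inactivated library 1 (0.0507 to 0.201).

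In the distal stretch the increases were moderate. ZNF671, another KRAB gene known for promoter methylation in carcinomas, was at 2.87, 3.28 and 3.22 CPM in control and 5.33, 5.91 and 4.71 CPM in inactivated libraries (log2 fold change 0.78 ± 0.12, adjusted p = 2.06e-05). ZNF772 was at 3.26, 2.56 and 2.77 CPM against 4.65, 4.74 and 4.36 CPM (0.68 ± 0.13). Neither gene overlapped between the groups. The adjacent genes ZNF587B, ZNF587, ZNF814 and ZNF417 rose together, with log2 fold changes of 0.52, 0.32, 0.32 and 0.31, a run picked out after the values were seen. They are close relatives, and 24.1% of the words of ZNF587B and 37.6% of those of ZNF417 occur in other genes, so their 4 values are uncertain as separate measurements. Without control library 2 or 3 the calls of ZNF814 (adjusted p = 0.0573 and 0.0757) and ZNF417 (0.0586 and 0.0854) were lost, and that of ZNF814 also without inactivated library 2 (0.103). ZNF211, ZNF304 and ZNF776 were the 3 members of this stretch that fell, by 0.24, 0.17 and 0.25 on the log2 scale, with ZNF304 not called without control library 1 or 2 or inactivated library 1 or 3 (adjusted p 0.0758 to 0.158).

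**Figure D3:**
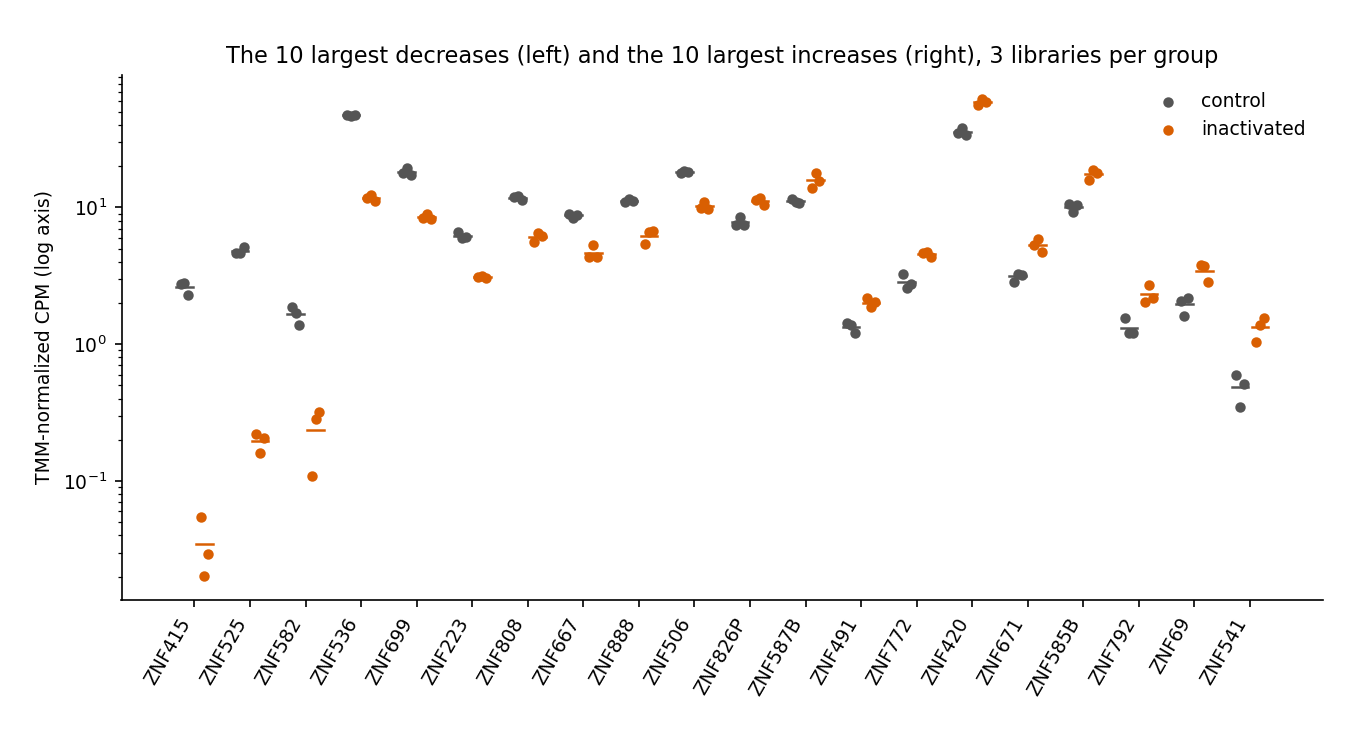
Level of the 10 members with the largest decreases and the 10 with the largest increases among called genes with at least 1 CPM in the higher group and no overlap, one point per library and a bar for the mean of 3 libraries, on a log axis of TMM-normalized CPM. ZNF415, ZNF525 and ZNF582 stand apart at under 0.4 CPM in every inactivated library, while ZNF420 and ZNF536 are the most abundant genes shown.

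Cluster 7 runs from ZNF575 to ZNF296 (43530835 to 45076478). Of 20 tested members 11 fell (55.0%), 8 did not pass and 1 rose (5.0%), and 19 of the 20 were fitted below 0. Over all genes tested 29.7% fell and 29.6% rose. Summed levels were 301, 303 and 305 CPM in control and 248, 261 and 254 CPM in inactivated libraries, a decrease by 15.9% with no overlap. ZNF223 moved furthest, from 6.64, 5.96 and 6.08 CPM to 3.09, 3.12 and 3.04 CPM (log2 fold change -1.01 ± 0.11, adjusted p = 1.53e-07). Because 43.7% of its words occur in other genes, part of its reads may have been assigned elsewhere or left out. ZNF428, which has 1 finger and the highest level per kilobase of the cluster (34.9 CPM per kb), had overlapping groups at 46.3 ± 2.93 and 41.4 ± 2.68 CPM (-0.16 ± 0.058, adjusted p = 0.0203) and was not called without control library 3 or inactivated library 2 or 3 (adjusted p 0.0642 to 0.112). ZNF296, the single increase (0.29 ± 0.12, adjusted p = 0.042), also overlapped between the groups, lies alone at the end of the cluster and was not called without control library 2 or 3 or inactivated library 1 or 3 (adjusted p 0.0705 to 0.21).

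Cluster 4, from ZNF101 to ZNF254 (19668153 to 24129968), lies toward the centromere on the short arm and holds the primate genes related to ZNF91 and ZNF43. It has 39 members, and 13 of them, among them ZNF208, ZNF257, ZNF676, ZNF729, ZNF98 and ZNF99, were below the filter. Of the 26 tested, 12 fell (46.2% against 29.7% over all genes) and 3 rose (11.5% against 29.6%). ZNF506 fell from 17.8, 18.4 and 18.2 CPM to 9.90, 10.9 and 9.76 CPM (-0.83 ± 0.069), and ZNF430 from 25.9, 28.02 and 26.9 CPM to 15.04, 15.6 and 15.3 CPM (-0.81 ± 0.060, adjusted p = 8.96e-10). ZNF93, which silences LINE-1 elements, fell from 35.7 ± 0.776 to 28.4 ± 1.44 CPM, and ZNF91, which silences SVA elements, had 36.8 ± 1.16 and 33.2 ± 3.20 CPM (adjusted p = 0.052). Both were named for their known role after the values were seen. ZNF675, with the highest level per kilobase here (13.4 CPM per kb), fell by 0.29 on the log2 scale. The increases were those of ZNF486 (0.21, adjusted p = 0.0992 without control library 3), ZNF730 (0.51) and the pseudogene ZNF826P, which went from 7.46, 8.50 and 7.47 CPM to 11.3, 11.8 and 10.4 CPM (0.52 ± 0.085).

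Cluster 6, from ZNF565 to ZNF573 (36182060 to 37779586), had all of its 27 members tested, with 11 decreases and 4 increases. Decreases were 40.7% against 29.7% over all genes, and increases 14.8% against 29.6%. ZNF146, a protein made almost wholly of fingers and lacking a KRAB domain, had the highest level per kilobase of all members (76.4 CPM per kb in control) and stood at 274, 299 and 290.5 CPM against 296, 308 and 301 CPM, overlapping groups with a log2 fold change of 0.07 ± 0.043 (adjusted p = 0.181). ZNF420, known as a negative regulator of p53, rose from 35.1, 38.3 and 33.8 CPM to 56.1, 62.1 and 58.5 CPM (0.72 ± 0.055, adjusted p = 1.51e-09), and 0 of its words are shared with other genes. The summed level of the cluster overlapped between the groups, at 769 to 815 CPM and 745 to 808 CPM. Among the decreases were ZNF790 (-0.69), ZNF607 (-0.51), ZNF461 (-0.50) and ZNF569 (-0.44).

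The pair ZNF585A and ZNF585B, whose start regions are printed above, lies in cluster 6. Their proteins have 769 residues and 21 fingers each and share 94.5% of aligned residues, the highest identity of any neighbours. ZNF585B (chr19:37181579-37210536) rose from 10.5, 9.25 and 10.4 CPM to 15.7, 18.7 and 17.98 CPM (0.80 ± 0.080, adjusted p = 6.41e-08). ZNF585A (chr19:37145540-37172695) had 16.4, 14.8 and 15.02 CPM and then 14.5, 14.8 and 14.7 CPM (-0.07 ± 0.067, adjusted p = 0.397). Per kilobase of exon, ZNF585A was at 1.72 CPM in control and 1.64 CPM in inactivated cells. ZNF585B was at 1.62 and 2.82 CPM per kb, so the 2 genes had similar levels per length in control. The difference between the 2 responses was not tested as such. Of their words, 17.3% in ZNF585A and 24.9% in ZNF585B occur in other genes, 11.05% and 15.5% in each other, so some reads cannot be placed. The pair was chosen after its values were seen.

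In cluster 2, from ZNF557 to ZNF846 (7069703 to 9786160), 7 of 13 tested members fell (53.8%) and 1 rose (7.69%). Over all genes tested 29.7% fell and 29.6% rose. ZNF699 went from 17.9, 19.3 and 17.2 CPM to 8.37, 8.95 and 8.15 CPM (-1.09 ± 0.074, adjusted p = 2.40e-10), and none of its words are shared with other genes. ZNF317, with the highest level per kilobase there (16.3 CPM per kb), fell from 77.1 ± 2.59 to 64.2 ± 2.35 CPM. ZNF559, beside ZNF699, was the increase (0.21), lost without control library 1 or 3 or inactivated library 2 (adjusted p 0.058 to 0.117). In cluster 3, from ZNF653 to ZNF791 (11483429 to 12633834), 7 of 26 tested members fell, 2 rose and 17 did not pass. Its share of decreases, 26.9%, was no larger than the 29.7% over all genes, and its increases were 7.69% against 29.6%. ZNF442 fell from 4.87, 4.58 and 4.94 CPM to 2.76, 2.96 and 3.24 CPM (-0.68 ± 0.12), while ZNF69 rose from 2.08, 1.61 and 2.17 CPM to 3.77, 3.73 and 2.84 CPM (0.83 ± 0.16) and ZNF491 from 1.34 ± 0.121 to 2.01 ± 0.153 CPM. ZNF791, the member with the highest level per kilobase, had -0.09 ± 0.050 (adjusted p = 0.12).

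Cluster 1, from ZNF554 to ZNF77 (2819868 to 2950625), had 4 tested members. ZNF554 rose from 4.45, 4.12 and 4.42 CPM to 5.55, 5.56 and 5.50 CPM (0.35 ± 0.10), while ZNF57 (-0.32) and ZNF77 (-0.22) fell. ZNF57 was not called without control library 2 (adjusted p = 0.1001) or inactivated library 3 (0.0664), and ZNF77 not without inactivated library 1 (0.0527). Cluster 5, from ZNF807P to ZNF792 (34541692 to 34964229), had 5 tested members. ZNF792 rose from 1.55, 1.21 and 1.204 CPM to 2.02, 2.72 and 2.19 CPM (0.82 ± 0.18). ZNF302 and ZNF181 are the most alike of the neighbours that were called in opposite directions. ZNF302 rose from 31.1, 32.2 and 31.9 CPM to 34.2, 36.8 and 35.4 CPM (0.16 ± 0.052), and ZNF181 fell from 12.3, 12.8 and 11.2 CPM to 9.24, 9.60 and 8.59 CPM (-0.40 ± 0.079).

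**Figure D4:**
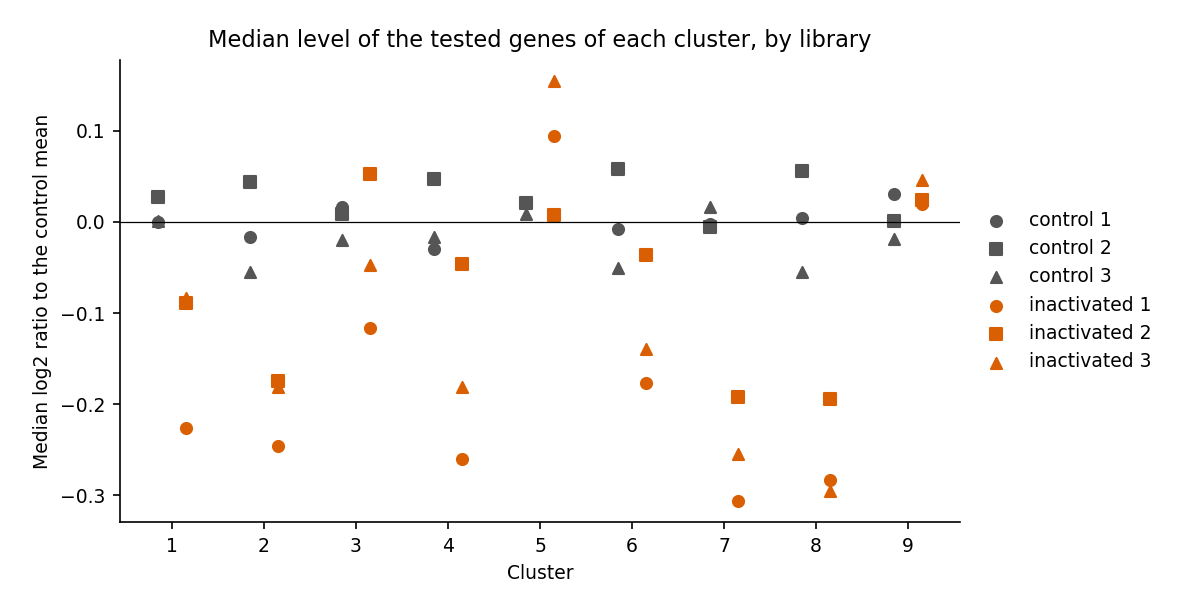
Median log2 ratio of each cluster's tested members to the control mean, one point per library, control in grey and inactivated in orange, with a symbol for each library. In clusters 7 and 8 the 3 inactivated libraries lie between -0.31 and -0.19, below every control library, and in cluster 9 they lie between 0.020 and 0.046.

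Of the scattered members, ZNF536 and ZNF541 changed most, and both lack KRAB letters. ZNF536 (chr19:30225592-30713586, plus strand), a brain gene that restrains neuronal differentiation, fell from 47.4, 46.6 and 47.3 CPM to 11.7, 12.3 and 11.1 CPM (log2 fold change -2.003 ± 0.057, adjusted p = 8.62e-16). It has the most RNA of the 4 members that fell furthest, and its libraries agree within 1 CPM of their group mean. TSHZ3, a neural transcription factor gene 436 kb after it, fell by 3.53 on the log2 scale, while URI1 before it fell by 0.25 and CCNE1 rose by 0.30. ZNF541 (chr19:47520690-47573309, minus strand), a chromatin factor of meiosis in the testis, was at 0.591, 0.346 and 0.512 CPM in control and 1.04, 1.39 and 1.55 CPM in inactivated libraries, from 50 against 160 counts (1.45 ± 0.26, adjusted p = 1.02e-04). Its level stayed low in both groups. Of its neighbours, NAPA fell by 0.42 and BICRA rose by 0.60.

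Neighbours that were both called usually moved the same way. Among 215 pairs of adjacent members with known proteins, both genes were called in 45, of which 29 fell together, 5 rose together and 11 moved in opposite directions. Among all called members 85 of 114 fell, and no test of the pairing was made. Overlap with other genes limits some of these values, since 21 members share over 10% of their exon bases with another gene and the strand setting of the counting is unknown. Among the tested members described here this touches ZNF302 (23.99% of exon bases), ZNF765 (22.3%), ZNF701 (21.4%), ZNF428 (20.9%), ZNF559 (14.9%), ZNF816 (13.6%) and ZNF791 (10.8%). Over 25% of 50-base words are found in other genes for 20 of 254 members, with a median of 2.65%.

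Properties of the genes went with the change only weakly. KRAB letters were found in the proteins of 208 members and not in 38. Of 179 tested KRAB genes 72 fell (40.2%) and 22 rose (12.3%), with a median of -0.12. Of 38 without these letters 11 fell (28.9%) and 6 rose (15.8%), with a median of -0.06. Over all genes tested 29.7% fell and 29.6% rose. The share of decreases among members without KRAB letters was thus near that of all genes. The number of fingers, at a median of 12.5 and up to 39 in ZNF729, had a Spearman correlation with the log2 fold change of -0.065 over 217 members. The correlation was 0.0084 for CG dinucleotides in the start region (194 members), -0.060 for exon length (224), 0.066 for the share of words found in other genes (222) and -0.15 for mean level (224). All points share the same 6 libraries, and these are descriptions across genes, which are not independent. Split by level into 4 groups of 56, the members had medians of 0.0021 for the lowest, then -0.14, -0.11 and -0.15, against 0.11, -0.020, -0.0026 and -0.022 for all genes in the same ranges of level.

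**Figure D5:**
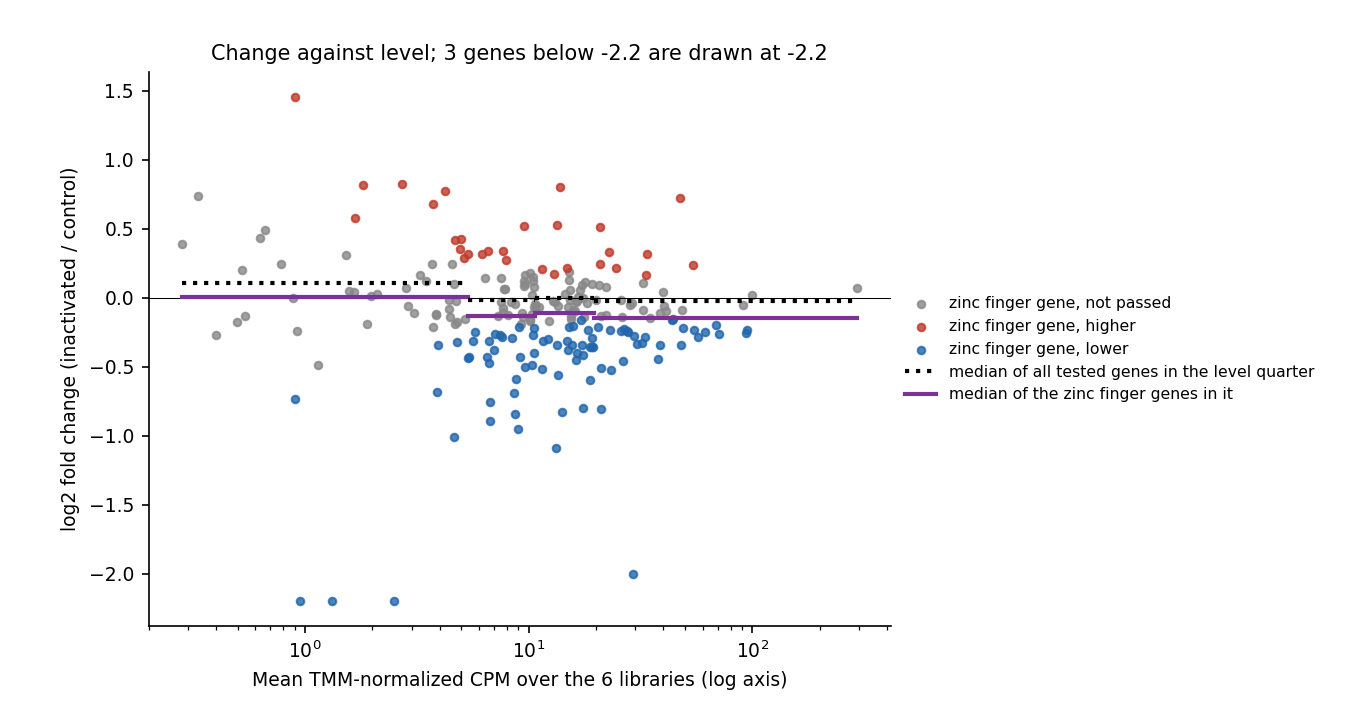
Log2 fold change of each tested member against its mean TMM-normalized CPM over the 6 libraries (log axis), coloured by call, with the median of members (solid) and of all tested genes (dotted) in 4 ranges of level. The solid line lies below the dotted line in each range, and the points drawn at the lower edge are ZNF415, ZNF525 and ZNF582.

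The genes that KRAB zinc finger proteins work with were called about as often as genes at large, 61.5% against 59.3%. Of a list of 40 such genes, 39 were tested, 14 rose (35.9% against 29.6% over all genes), 10 fell (25.6% against 29.7%) and 15 did not pass, with a median of -0.0065. EHMT2 had no count in any library. This need not show absence of expression, since the setting for reads with more than 1 alignment is unknown. TRIM28, the KRAB corepressor, rose from 466 ± 15.4 to 533 ± 26.3 CPM (0.19 ± 0.046, adjusted p = 0.0014). SETDB1, the methyltransferase it recruits, was at 93.4 ± 2.24 and 86.7 ± 2.50 CPM (-0.11 ± 0.043, adjusted p = 0.038), a call that DESeq2 did not make (adjusted p = 0.0604) and that was lost without control library 1 or 2 or inactivated library 1 or 3 (0.0515 to 0.183). RESF1, a partner of SETDB1 in silencing retroviral elements, changed most, from 46.9 ± 2.50 to 140.1 ± 8.09 CPM (1.58 ± 0.052). DNMT3B, a de novo DNA methyltransferase, rose from 18.6 ± 0.607 to 37.2 ± 2.90 CPM (1.00 ± 0.063), the heterochromatin protein gene CBX1 from 245 ± 12.01 to 399 ± 9.01 CPM (0.70 ± 0.044) and the remodeller CHD3 from 208 ± 4.27 to 306 ± 12.2 CPM (0.56 ± 0.043). MORC2 (0.43) and HDAC2 (0.42) also rose.

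Zinc finger genes of chromosome 19 whose symbols do not begin with ZNF were counted from a list of 20. Of these, 19 are in the table under those symbols, the other being HKR1, which is listed as ZNF875 and counted among the members (-0.09 ± 0.06, not passed). Of the 14 tested, 5 fell (35.7% against 29.7% over all genes) and 2 rose (14.3% against 29.6%), with a median of -0.08. ZFP82, ZFP30 and ZFP28, KRAB genes of clusters 6 and 9, fell by 0.47, 0.39 and 0.26 on the log2 scale. PEG3, an imprinted gene between the 2 stretches of cluster 9, was at 147 ± 3.90 and 144 ± 6.64 CPM (adjusted p = 0.644).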

How the data were processed

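Messenger RNA of D283 cells was sequenced as 50-base read pairs in 6 libraries of 2 lanes each, per the labels. The submitters' processing notes name the build GRCh38.p14 and the tools STAR 2.7.2b, featureCounts 1.6.3, DESeq2 1.36.0, FastQC 0.11.9 and MultiQC 1.11. The authors deposited raw, unnormalized counts for each gene in each lane. A further deposited column holds the exon length of a gene in bases, another unit, which served here for levels per kilobase. Of 49677 rows, 26 without counts were left out. The settings for strand and for reads with more than 1 alignment are not stated in the labels.

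Lanes were summed per library. Alternate copies on other sequences, 11 rows of members with 166 counts in all, were left out, which touches ZNF430 among the named genes. Reads that fit both a member and its alternate copy may be missing from both, since their setting is not stated. Genes were filtered with filterByExpr (minimum count 10, minimum total count 15), scaled by TMM and compared in edgeR 4.0.16 by the two-sided quasi-likelihood F test, with Benjamini-Hochberg adjustment over 14704 genes and a threshold of 0.05. Levels are given in CPM after TMM scaling, per library or as mean ± SD (n = 3), and log2 fold changes are inactivated over control ± SE. Counting intervals (95%, exact) and the limit of 3 counts cover counting error only. The biological coefficient of variation was 0.0447. On simulated data with 14466 genes and 200 changed, 1.5-fold changes were recovered in 78.4% and 2-fold changes in 95.9% of cases, and 3.41% of 176 calls were false. The simulation gave every gene the same dispersion and changed few genes, whereas 59.3% were called in the real data. These rates therefore need not hold for the real comparison.

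Fingers, KRAB letters, protein identity and shared 50-base words were computed from GENCODE 29 transcripts, and no protein sequence is printed. The named genes are ABL1, ABL2, the 10 largest increases and 10 largest decreases past the threshold with at least 1 CPM in the higher group and no overlap, the member of each cluster with the highest control level per length and with the lowest p, TRIM28, SETDB1 and 6 further partner genes, and the closest neighbours called in opposite directions. Members, lists and clusters were chosen with earlier results of these data known, and genes outside the rule were named after their values were seen. Alternatives were other scalings, DESeq2 1.42.0, limma-voom (limma 3.58.1), other filters, single lanes, each library left out, a null of at most 1.5-fold, subsets of members and other cluster gaps.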

Additional observations from a re-analysis of the deposited data

How the results depend on the processing

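Counts and the median of all members kept their direction in every alternative run, with 21 to 28 increases, 74 to 97 decreases and a median of -0.15 to -0.087 when 1 library was left out. Against a null of at most 1.5-fold, 3 members were higher and 12 lower, since that test asks for larger changes. The share over all genes was not taken for that test. Of 188 values for medians, 173 stayed within the spread of the libraries. The median of cluster 2 became -0.10, and those of clusters 8 and 9 -0.087, when starts up to 2 Mb apart were joined, which merges clusters 8 and 9. That of cluster 5 became 0.0018 with no filter, 0.012 without genes that overlap others and -0.066 with 2 Mb, and that of cluster 7 -0.18 in lane 1 alone. Cluster 9 had 0.056 with library totals, -0.00055 with no filter, 0.057 in lane 1 alone, 0.017 without overlapping genes, 0.094 for its distal stretch at 0.5 Mb, and 0.0082 to 0.063 with 1 library left out, so the sign of its median is not settled, nor is that of cluster 3 (-0.11 to 0.027 with 1 library left out); the cause was not tested. Leaving out 1 library gave -0.23 to -0.12 in cluster 4, 0.052 to 0.13 in cluster 5 and -0.16 to -0.049 in cluster 6. Of the 45 named genes, 38 kept direction and side of the threshold in every setting that tested them and 0 reversed. Of these, ZNF541 and ZNF582 were tested in 13 of the 14 settings. ZNF491, ZNF57, ZNF554, ZNF428, ZNF787 and SETDB1 lost their call in at least 1 setting, and ZNF791 gained one without inactivated library 2 (adjusted p = 0.033). No paired analysis was possible because the columns carry no replicate numbers that the groups share. The depth of 33505903 to 49034159 counts limits ZNF415, ZNF525, ZNF582 and ZNF541, whose lower group held 4 to 50 counts.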
